A study of Mus musculus with 4 samples.

Results

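The probes described here are those that the array's annotation places on mouse chromosome 11 between 58 and 71 Mb of genome build mm9, a region of 13 Mb. A probe is a synthetic DNA strand fixed on the array that binds the labelled copy of 1 transcript, and its brightness (intensity) reports how much of that copy was present. The region held 584 probes with 375 gene names, of 55681 probes on the array. A further 33 probes in it, of 21 gene names from families and genes set aside by name (among them Alox, Myh, Nduf, Cox, Rpl and Rps genes, Trp53, Nlrp3, Pmp22, Per1, Eno3 and Aurkb), were left out. The region was chosen because probes in it differed between the mutant and wild-type mice of these same data, so its differences are given as a description and are not evidence that the region is unusual.

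Whole ear tissue was taken 48 h after 2,4-dinitrofluorobenzene (DNFB), a contact allergen, had been applied to the ear. Both wild-type mice were RelAfl/fl, that is, they carried Rela alleles flanked by recombination sites but no recombinase. Both mutant mice were K14Cre RelAfl/fl, in which the keratin 14 promoter drives Cre recombinase in basal keratinocytes, the dividing cells of the epidermis. Each group had 2 mice, every mouse was treated with the allergen, and the labels give no age, sex, strain, litter or number of backcrosses. Each ear gave 1 single-colour array from 100 ng of RNA. In such bulk tissue, fewer cells of a type and less RNA per cell cannot be told apart.

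As background, genes that lie side by side on a chromosome are inherited together. When a gene-targeted line is crossed to another strain, stretches of chromosome from the founding strain can persist around the altered locus or around an inserted transgene, and at neighbouring genes in such stretches the mice can differ in sequence as well as in RNA level. A probe reads both, since a mismatch between probe and transcript can dim its signal. Rela itself lies on chromosome 19. Where the Cre transgene sits, and whether the groups differed in strain origin in this region, was not tested, because the arrays measured no genotype.

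The genes of this region are of many kinds. They include olfactory receptors and interferon-induced GTPases at its start, Wnt ligands, ubiquitin and signalling kinases further on, and, near its end, a gene-dense stretch with macrophage and hepatocyte lectins, the TNF-family ligands Tnfsf12 and Tnfsf13, metabolic carriers and the inflammasome sensors of the Nlrp1 family.

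Probe sequences are shown for the 3 named probes that the array's design assigns to noncoding RNAs, because they are among the named probes of the region and, for both intergenic RNAs, other probes of the same transcript are on the array. The first, for the long noncoding RNA 2610507I01Rik, covers chr11:59011304-59011363 on the minus strand. The second belongs to a long intergenic noncoding RNA (lincRNA) annotated at 69189587 to 69190674 on the minus strand, and covers chr11:69189588-69189647. The third belongs to a lincRNA annotated at 69196530 to 69197001 on the plus strand, and covers chr11:69196933-69196992. Each is 60 bases, written 5′ to 3′, with no letters marked.
2610507I01Rik: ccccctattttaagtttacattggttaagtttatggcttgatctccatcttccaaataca
minus-strand lincRNA: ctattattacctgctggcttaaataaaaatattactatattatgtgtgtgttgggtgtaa
plus-strand lincRNA: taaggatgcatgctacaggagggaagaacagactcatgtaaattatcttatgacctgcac
Their GC content was 35%, 28.3% and 41.7%, against a median of 45% over the 380 tested probes of the region with an unadjusted p of 0.01 or more and 43.3% over the 25 probes below that value.

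All levels below are log2 intensities minus the 75th percentile of the same array, so 0 is the level of that percentile and each unit is a doubling. Differences are mutant minus wild type, with the standard error (SE) of limma's moderated fit over 2 mice a group. The 4 arrays were on 1 slide, 61.21% to 64.27% of their spots were well above background, and none was saturated. The array of mutant mouse 2 had a damaged corner of 2720 spots, which held at least 1 spot of 32 probes of the region, 21 of them tested; it is named beside the results that rest on it. Rela's probe, itself in that corner, read 4.48 and 4.60 in the wild-type mice and 4.59 and 4.72 in the mutants, a difference of 0.11 ± 0.12 (SE). Where this probe lies relative to the deleted exons was not given, so it does not check the genotype labels. Keratinocyte markers (5 of 5) and fibroblast markers (3 of 3) were well above background on every array. Of the 3 neutrophil markers, S100a8 and S100a9 were 1.7 and 1.3 higher in the mutants (limma adjusted p 0.442 for both). The third, Ly6g, differed by -0.09. The summed level of all 3 on a linear scale was 124 and 155 in the wild-type mice and 367 and 360 in the mutants. This sum follows S100a8 and S100a9, since Ly6g was far dimmer (2.08 to 2.44, against 6.43 to 7.89 for S100a9). The sum is thus no count of neutrophils. The part of these markers in the results below was not tested.

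A probe was tested when, in at least 1 of the groups, neither mouse's signal fell short of Agilent's well-above-background limit. In this region 405 probes of 289 gene names (69.3%) met that rule, against 60.5% of all probes, and 377 were well above background on all 4 arrays. Of the 179 untested probes, 149 were not well above background on any array. Wild-type mice were below this limit at 5 tested probes and mutants at 4.

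Going along the chromosome, the named probes of the olfactory receptor and Wnt stretch at the start were those of Fam183b, 2610507I01Rik, Guk1 and Wnt3a. Those of the gene-dense stretch at the end included Gucy2e, Cd68, Asgr1, 6330403K07Rik and Nlrp1b. With limma and Benjamini-Hochberg adjustment over all 33664 tested probes, 2 of the 405 members had an adjusted p under 0.05, against 0.0208% of all tested probes. At an unadjusted p under 0.01 there were 25, 8 higher and 17 lower in the mutants. That is 6.17% of the members, beside 1.7% of all tested probes (0.802% higher and 0.894% lower). Nothing is read from these shares or from their place along the region, since the region was chosen on this contrast.

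**Figure D1:**
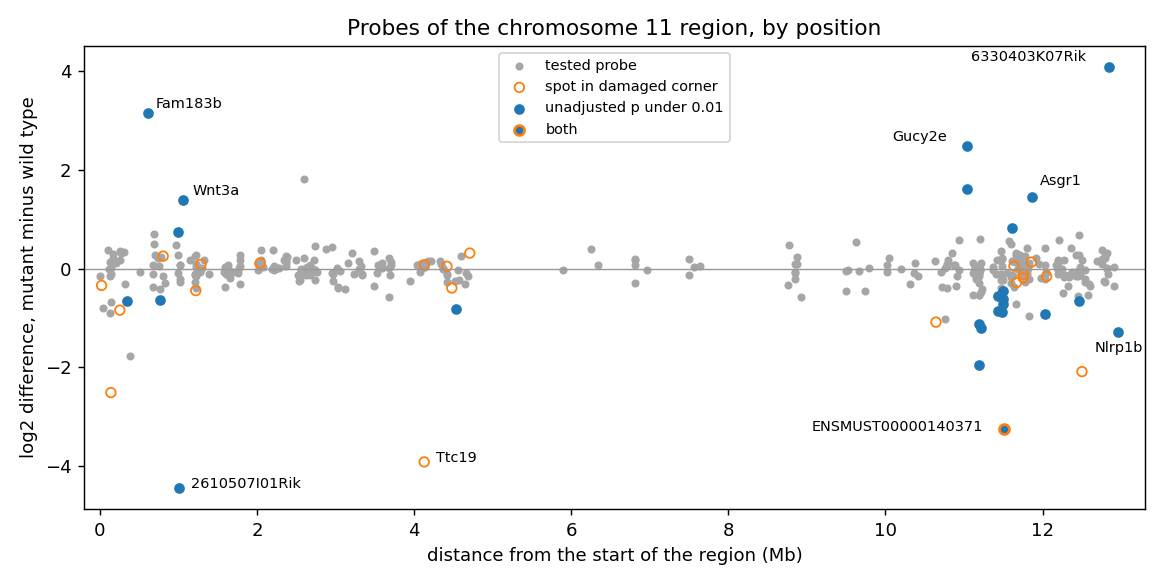
Log2 difference (mutant minus wild type, 2 mice a group) of each of the 405 tested probes against its distance in Mb from the start of the region. Grey points are tested probes, blue points have an unadjusted p under 0.01, and orange rings mark probes with a spot in the damaged corner of 1 array. Of the 25 blue points, 6 lie in the first 2 Mb, 1 in the next 9 Mb and 18 in the last 2 Mb.

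Split in this way after the values were seen, the first 2 Mb (58 to 60 Mb) had 84 tested probes, 6 of them under 0.01, 3 in each direction. The next 9 Mb (60 to 69 Mb) had 157 tested probes and 1 under 0.01, a probe of Zfp287, which is 0.637%. The last 2 Mb (69 to 71 Mb) had 164 tested probes and 18 under 0.01, 5 higher and 13 lower in the mutants. The longest stretch with no such probe ran 6.5 Mb from Zfp287 to Gucy2e and held 61 tested probes. It includes Ntn1, Map2k4 and Elac2, and outside the damaged corner its largest difference had a size of 1.01. By steps of 1 Mb, the share was highest between 69 and 70 Mb, with 14 of 101 probes (13.9%). Gene density differs along the region, and the 5 steps from 63 to 68 Mb held 1 to 9 tested probes each.

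**Figure D2:**
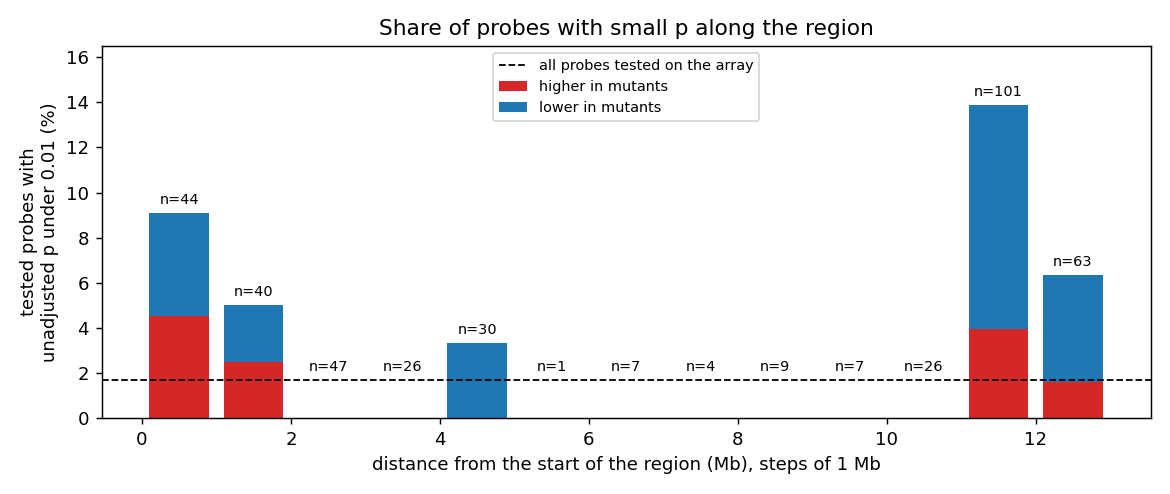
Percent of tested probes with an unadjusted p under 0.01 in each 1 Mb step, with the number of tested probes above each bar, red for probes higher and blue for probes lower in the mutants. The dashed line is the 1.7% of all tested probes on the array. The step 11 to 12 Mb from the start has 14 of 101 probes and 6 neighbouring steps before it have 0.

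Most members were close to equal in the groups. The median difference was -0.01 over the 405 members and 0.01 over all tested probes, and 189 members were higher and 216 lower in the mutants. The sign of this median changed with the processing: it was 0.01 with background corrected by normexp and 0.00 with arrays centred on their median. The normexp setting, here and below, also adds an offset of 50 to every intensity, which by itself shrinks log2 differences of dim probes. The median size of the difference, whatever its sign, was 0.149 in the region, 0.129 on the rest of chromosome 11 and 0.121 over all tested probes. The 90th percentile of size was 0.575 in the region against 0.431 on the rest of the chromosome. The gap between mice of the same genotype enters the p-values as their spread, so it may not be free of the choice of the region. Its median size was 0.150 between the wild-type mice and 0.136 between the mutants, against 0.160 and 0.151 over all tested probes.

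The groups did not overlap at 192 members, or 47.4%, where 36.3% of all tested probes did not overlap. At 16 members they were also at least 2-fold apart, which is 3.95% against 1.2% of all tested probes. Of these 16, 3 have a spot in the damaged corner. The count was 13 with the corner left out, and it was 4 with normexp. A stretch of chromosome 4, chosen on the same contrast, had 17 of 283 tested probes under 0.01 (6.01%) but 5 (1.77%) apart by 2-fold. Probes within 3 Mb of Rela on chromosome 19 had 3 of 293 under 0.01 (1.02%) and 0 apart by 2-fold. These differences between regions were not tested.

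2610507I01Rik had the largest difference of the region. It is a long noncoding RNA between Guk1 and Mrpl55, and the 35% GC probe shown above reports it. Its level was -0.16 in both wild-type mice, and -4.73 and -4.49 in the mutants. The signal was well above background in all 4 mice, and the mutants lay far below the wild-type mice, with mice of 1 genotype close together. The difference was -4.45 ± 0.13 (SE, n = 2 a group), a level 21.8 times lower in the mutants, with a limma adjusted p of 0.0216. With normexp the difference was -2.66 (adjusted p 0.00196). The adjusted p was 0.165 with the replicate block, 0.0649 with the crossed block, 0.194 with no filter on dim probes, and 0.282 and 0.319 without wild-type mouse 1 or 2, and was under 0.05 in the other 11 alternatives. The probe is the only one for this RNA, so no second probe of it can be set beside this value.

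Other genes beside it did not share that difference. Mrpl55, a protein of the mitochondrial ribosome, differed by -0.21 ± 0.14, and 2310033P09Rik by 0.08 ± 0.11. Guk1, guanylate kinase, which phosphorylates GMP, had a difference of the other sign: it read 2.03 and 2.12 in the wild-type mice and 2.70 and 2.94 in the mutants, a difference of 0.74 ± 0.14. Its adjusted p was 0.525 with limma, and no alternative brought it under 0.05.

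Fam183b, a gene linked to motile cilia, was the other member with an adjusted p under 0.05 by limma (0.0347). It entered the test only through the mutants, so this p rests on wild-type values below the background limit. This p supports no more than the comparison below. Its probe at chr11:58606357-58606416 read -7.15 and -7.32 in the wild-type mice, where it was not well above background, and -3.99 and -4.19 in the mutants. It was dim in every mouse but measured in both mutants. The mutant mean of normalized log2 values was 2.59-fold above the lowest signal counted as above background on the wild-type arrays. This is no strict lower bound, since some probes below the background limit read higher than probes above it. In wild-type mouse 2, a lincRNA probe below the limit read -5.14, while that of Wnt3a, above it, read -5.18. With background corrected by normexp, the difference of Fam183b was 0.66 on the log2 scale (limma adjusted p 0.244), smaller than that fold. That fold and those of the same kind below hold only on the scale of the processed signal. Fam183b was not tested where all 4 arrays had to be above the limit. Beside it, the ciliated-cell markers Foxj1 and Dnahc5 were not well above background on any array, and Tekt1 was so on both wild-type arrays alone. Its flanking probes, of the olfactory receptors Olfr315, Olfr314 and Olfr312 and 1 unnamed transcript, were too dim to test.

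Wnt3a, a Wnt ligand that signals through beta-catenin, read -5.53 and -5.18 in the wild-type mice and -3.90 and -4.05 in the mutants. It was dim, and below the background limit in wild-type mouse 1, but both mutants lay above both wild-type mice. The difference was 1.38 ± 0.17 (adjusted p 0.442 with limma), with 1 of the wild-type values only a bound, and 0.46 with normexp. Wnt9a, a nearby ligand of the same family, read -1.35 and -1.56 in the wild-type mice against -1.21 and -1.34 in the mutants, a difference of 0.18 ± 0.13.

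Gucy2e encodes a membrane guanylate cyclase of photoreceptors. Its 2 measured probes overlap and share 18 bases (chr11:69036563-69036580, minus strand: agaagctggagaaagcca), so they are not independent readings. One read -6.20 and -6.46 in the wild-type mice and -4.75 and -4.71 in the mutants, and the other -7.12 and -6.94 against -4.98 and -4.12. Both were below the background limit in the wild-type mice and above it in the mutants. Against the lowest signal counted as above background, the mutants were 1.66-fold and 1.88-fold higher on the scale of the processed signal. With normexp the differences were 0.41 and 0.49 on the log2 scale, smaller than those folds. The third probe, which does not overlap them, was dark in all 4 mice. The retina marker Pde6b was not well above background on any array, and Gnat1 was so on 2.

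Asgr1 encodes a subunit of the hepatocyte asialoglycoprotein receptor. One probe read -5.18 and -5.15 in the wild-type mice and -3.89 and -3.53 in the mutants, a difference of 1.45 ± 0.16 (0.51 with normexp), while its other probe was not well above background in any mouse. The hepatocyte markers Alb, Ttr and Apoa1 were likewise dark on all 4 arrays, while Serpina1a differed by 0.47. Asgr2, the partner subunit, differed by 0.22 ± 0.26, with overlapping groups.

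6330403K07Rik, near the end of the region, differed by 4.08 ± 0.24, the largest difference upward. Its level was -2.83 and -3.46 in the wild-type mice and 0.99 and 0.88 in the mutants, so that it was measured in every mouse and the mutants were 16.9 times higher. With normexp the difference was 3.26. Its adjusted p was 0.109 with limma, and under 0.05 in 5 of 16 alternative settings. It too has 1 probe. The next tested probe on one side, of the inflammasome sensor Nlrp1a, differed by 0.03 ± 0.12. The next on the other side, of Mis12, a kinetochore protein, differed by -0.10 ± 0.11.

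**Figure D3:**
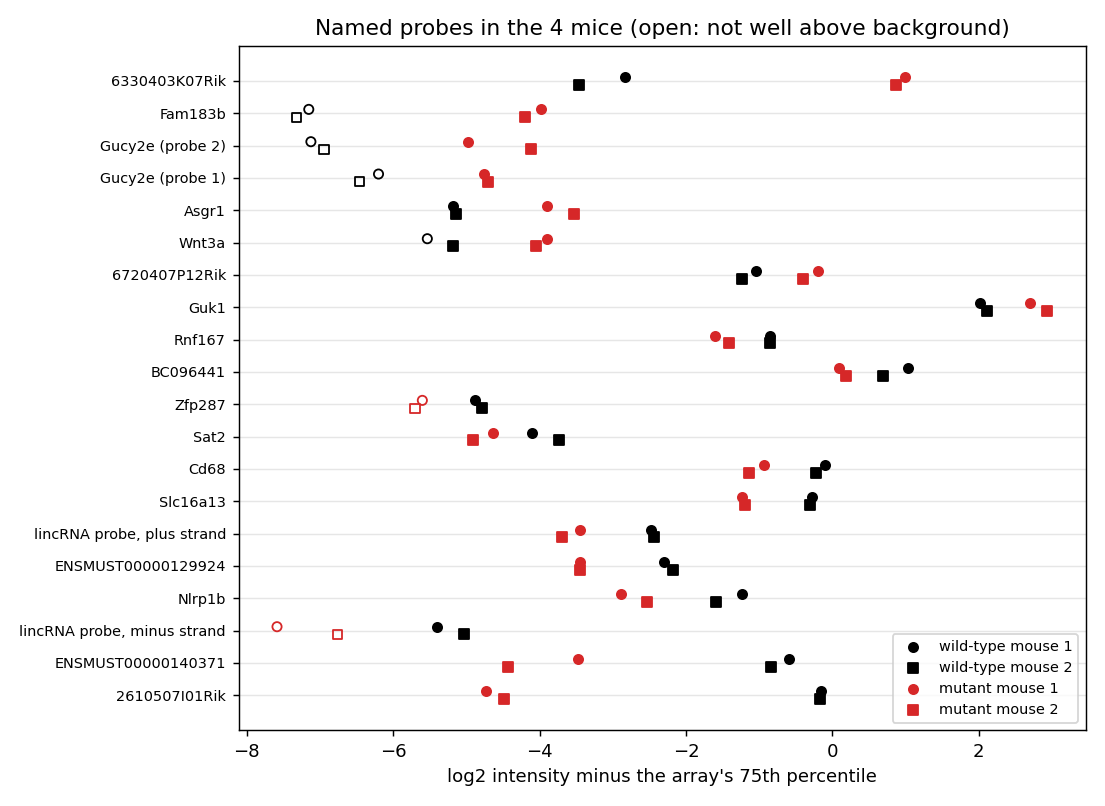
Level of each named probe in each mouse, as log2 intensity minus the array's 75th percentile; black for wild type, red for mutant, circles for mouse 1, squares for mouse 2, open where the probe was not well above background. The groups do not overlap at any of these 20 probes, which is part of how they were chosen, and the mutants lie up to 0.96 apart (ENSMUST00000140371).

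Nlrp1b encodes an inflammasome sensor, a protein that assembles a caspase-1 platform and differs much between mouse strains. Inside the region its probe read -1.23 and -1.59 in the wild-type mice and -2.88 and -2.53 in the mutants, a difference of -1.29 ± 0.20. A second probe, at chr11:71030377-71030436, lay just past the 71 Mb limit. It read -4.11 and -4.55 in the wild-type mice and was below the background limit in both mutants. Its wild-type mean was 2.1-fold above the lowest signal counted as above background on the mutant arrays. Both probes were thus lower in both mutants. Nlrp1a, the neighbouring sensor, differed by 0.03 ± 0.12 at its brightest probe and -0.35 ± 0.19 at a dimmer one. The pseudogene Nlrp1c-ps, past the limit, differed by -0.44 ± 0.19. Members of this family resemble each other, so their probes may share signal.

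A run of lower probes lay between Sat2 and Tnfsf12. From 69435714 to 69504643, limits set after the values were seen, 12 of 16 tested probes were lower in the mutants. Of these, 7 probes of 5 gene names had an unadjusted p under 0.01, 1 of them in the damaged corner, and no higher probe did; over all tested probes these shares were 0.894% lower and 0.802% higher. The median difference was -0.31. Genes with large and small differences alternated there.

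Cd68, a lysosomal glycoprotein of macrophages, was measured by 2 probes. The brighter read 3.68 and 3.55 in the wild-type mice and 3.25 and 3.19 in the mutants, a difference of -0.40 ± 0.12. The dimmer one read -0.10 and -0.22 against -0.93 and -1.14, a difference of -0.88 ± 0.13. Both probes were lower in both mutants than in either wild-type mouse. Over 4 other macrophage markers, 3 were lower and 1 higher, with a median of -0.14, and their summed linear level was 61.9 and 59.5 in the wild-type mice and 60.9 and 52.6 in the mutants. The part of macrophage number in the Cd68 values was not tested.

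Sat2 encodes an acetyltransferase related to the polyamine enzyme Sat1. Its brighter probe read -0.91 and -0.80 in the wild-type mice and -1.49 and -1.35 in the mutants, and its probes differed by -0.56 ± 0.12 and -0.86 ± 0.19, the second by -0.27 with normexp. Next come Tnfsf12 (TWEAK), a TNF-family ligand, and BC096441, named Tnfsfm13 in RefSeq, a read-through transcript of Tnfsf12 and Tnfsf13. The brighter BC096441 probe read 1.04 and 0.70 in the wild-type mice and 0.09 and 0.19 in the mutants; its 2 probes differed by -0.72 ± 0.16 and -0.62 ± 0.12. Those of Tnfsf12 differed by -0.22 ± 0.12 and -0.46 ± 0.11. These transcripts overlap, so their probes may read the same RNA. At each of these 6 probes the groups did not overlap, within a run whose limits were set on such values. The groups did not overlap at 36.3% of all tested probes and 47.4% of the members.

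The genes between them differed by -0.23 to 0.35, less in size than Cd68, Sat2 and BC096441 but not less than Tnfsf12 at each probe. Fxr2, an RNA-binding protein, differed by -0.10 ± 0.11, and Mpdu1, used in glycan assembly, by -0.13 ± 0.11 and -0.23 ± 0.14. Eif4a1, a translation initiation helicase directly beside Cd68, differed by 0.05 ± 0.15, and Senp3, a SUMO protease, by 0.19 ± 0.12 and 0.21 ± 0.15. Sox15, a transcription factor, differed by 0.35 ± 0.19.

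At the end of the run, the probe ENSMUST00000140371 read -0.60 and -0.83 in the wild-type mice and -3.48 and -4.44 in the mutants, a difference of -3.24 ± 0.34, or -2.04 with normexp. Its spot lies in the damaged corner of mutant mouse 2, so that reading is in doubt. Mutant mouse 1, whose array has no such damage, also read far below the wild-type mice.

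Both lincRNAs shown above lay before this run and were lower in the mutants at the printed probe. The minus-strand lincRNA read -5.40 and -5.03 in the wild-type mice and -7.59 and -6.76 in the mutants, where it was not above the background limit. The wild-type mean was 1.14-fold above the lowest signal counted as above background on the mutant arrays, which is no strict bound. With normexp the difference of this lincRNA was -0.19. Its 2 other probes were each well above background on 1 array and were not tested. The plus-strand lincRNA read -2.48 and -2.43 against -3.45 and -3.69 at the printed probe, a difference of -1.11 ± 0.14. Its 2 other probes, nearer its start, were brighter and differed by 0.06 ± 0.14 and -0.09 ± 0.12. ENSMUST00000129924, further along, read -2.30 and -2.17 against -3.45 and -3.45, a difference of -1.21 ± 0.12.

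Other named genes of the last 2 Mb differed by less than 2-fold. Slc16a13, a monocarboxylate carrier, read -0.28 and -0.31 in the wild-type mice and -1.23 and -1.20 in the mutants, a difference of -0.92 ± 0.11, while its other probe differed by -0.20 ± 0.13. Its neighbour Slc16a11, of the same family, read -0.08 in both wild-type mice and 0.30 and 0.37 in the mutants, a difference of 0.42 ± 0.11. Rnf167, a ubiquitin ligase of endosomes and lysosomes, differed by -0.66 ± 0.12 at one probe and by -0.06 ± 0.13 at a brighter one. 6720407P12Rik differed by 0.83 ± 0.14. In the middle stretch lay Zfp287, a zinc finger gene. At a dim probe, on the scale of the processed signal, its wild-type mean was 1.48-fold above the dimmest measured probes of the mutant arrays. This probe differed by -0.03 with normexp, and a brighter one by -0.25 ± 0.17.

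Probes of 1 gene thus often differed by unlike amounts. Of 92 genes with at least 2 tested probes, 55 (59.8%) had all their differences of 1 sign, against 58.3% of 6770 such genes on the whole array. The range between probes of a gene had a median of 0.188 in the region and 0.147 over all genes. It was over 0.5 in 21 genes, and in 16 of the 84 with no spot in the damaged corner.

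**Figure D4:**
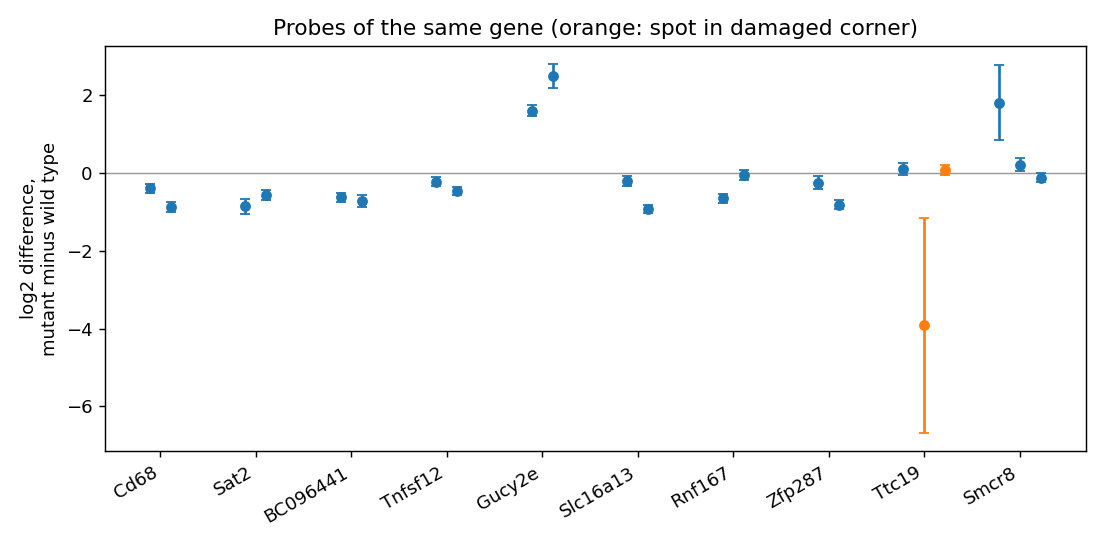
Log2 difference (mutant minus wild type) with its SE for each tested probe of 10 genes, in order of position within a gene; orange marks a probe with a spot in the damaged corner. Both probes of Cd68, Sat2 and BC096441 lie below 0, while Slc16a13, Rnf167 and Zfp287 have 1 probe much lower than the other.

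Some of the large values came from 1 mouse. Ttc19, a mitochondrial protein, read 0.53, 0.71 and 0.87 in the wild-type mice and mutant mouse 1 but -7.46 in mutant mouse 2, where its spot is in the damaged corner; its other probes differed by 0.10 ± 0.17 and 0.08 ± 0.13. Inca1 showed the same, with -7.45 in mutant mouse 2 alone. In all, 4 members of the corner were dark in mutant mouse 2 and bright in the other mice. Without the corner, 27 of 388 tested members had an unadjusted p under 0.01, or 6.96%. One Smcr8 probe differed by 1.81 ± 0.96, with wild-type mouse 2 at -6.70 and the other mice at -3.84 to -3.40; its other probes differed by 0.21 ± 0.16 and -0.12 ± 0.12. Among members well above background on all 4 arrays, the olfactory receptor probe of Olfr224 had the largest gap between mice of 1 genotype. It read -1.30 and -3.92 in the mutants and -0.29 and -1.36 in the wild-type mice. Its annotated position spans only 5 bases.

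Described by gene list, with 1 value a gene from its brightest tested probe, every list below had members in both directions. Of 20 tested immune genes, 9 were higher and 11 lower, with a median of -0.04, and 3 probes, all lower, had an unadjusted p under 0.01 (0.894% of all tested probes were lower at that limit). Clec10a and Mgl2, macrophage lectins, differed by -0.18 ± 0.15 and 0.08 ± 0.11, and the chemokine Cxcl16 by 0.17 ± 0.13. Gp1ba, a platelet receptor subunit, differed by -0.55 ± 0.23. The interferon-induced GTPases at the start of the region, picked after their values were seen, had wide gaps between mice: Irgm2 read 3.33 and 2.99 in the wild-type mice and 2.00 and 2.71 in the mutants, and Gm12250 read 1.34 and 1.13 against 0.76 and 1.43.

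Of 27 tested genes of transcription, RNA, translation and protein turnover, 14 were higher and 13 lower, with a median of 0.00 and none under 0.01. Ubb, a ubiquitin gene and among the brightest here, read 7.34 and 7.38 in the wild-type mice and 7.30 and 7.40 in the mutants, a difference of -0.01 ± 0.11. Med11, a Mediator subunit, had the list's largest difference, -0.49 ± 0.12. Of 16 genes of autophagy, trafficking and cytoskeleton, 8 were higher and 8 lower, with Kif1c, a kinesin, at -0.28 ± 0.12 and Plscr3 at 0.28 ± 0.12.

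Of 15 tested genes of lipid, sterol and aldehyde metabolism, 5 were higher and 10 lower, with a median of -0.06. Aldh3a1, an aldehyde dehydrogenase of surface epithelia, read 4.22 and 4.08 in the wild-type mice and 3.87 and 3.69 in the mutants, and Srebf1, a regulator of lipid synthesis, differed by 0.11 ± 0.20. Of 10 genes in the list of hepatocyte lectins and neighbours, 6 were higher and 4 lower. Of 12 genes of Wnt signalling, polarity and growth, 7 were higher and 5 lower, and of 20 nerve, muscle and retina genes 11 were higher and 9 lower. Of 9 zinc finger genes, 3 were higher and 6 lower, with Zfp672 at -0.90 ± 0.21. Of 7 ciliary and sperm tail genes, 3 were higher and 4 lower, with the dynein Dnahc2 at -0.42 ± 0.17. Of 23 olfactory receptor genes with 25 probes, 17 probes were dark on all arrays and 6 genes were tested, 2 higher and 4 lower. Olfr330 was among them, with a wild-type mean 1.24-fold above the lowest signal counted as above background on the mutant arrays. The median over all tested probes, beside which these medians stand, was 0.01.

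At its limits, the region began with Gm12250 (-0.14 ± 0.25) and Igtp (-0.34 ± 0.30). Just before it lay Mrpl22 (0.06 ± 0.15 and 0.07 ± 0.12) and Gemin5 (1.06 ± 0.15). It ended with Nlrp1b, and just after it lay the second Nlrp1b probe. Between 56 and 58 Mb, 2 of 13 tested probes had an unadjusted p under 0.01, and between 71 and 73 Mb 3 of 44. These few probes, beside 1.7% of all tested probes, set no extent for the differences. One of them, of Xaf1, an interferon-induced gene that promotes cell death, was called across all probes: it read -2.37 and -2.39 in the wild-type mice and 2.75 and 3.30 in the mutants, a difference of 5.41 ± 0.21 with a limma adjusted p of 0.0298. The other Xaf1 probe read 2.18 and 2.15 against 1.49 and 2.01, a difference of -0.41 ± 0.20. The differences of its probes thus had opposite signs.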

How the data were processed

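The deposited files held 1-colour Agilent scanner output, extracted per the file headers with Agilent Feature Extraction 10.7.3.1 on build mm9. The processed intensity was background-adjusted and spatially detrended by that software, per the file headers. Multiplicative detrending was also on, as was the use of surrogates, values that the software puts in place of signals too near background. The dimmest levels given above may be such values, which was not checked. The authors' table of the series held linear ratio values of the same spots, used as an alternative. The deposited flags (other values) gave spots well above background and outliers. Control spots and outlier spots were left out, spots of 1 probe were averaged, and log2 intensity was centred on each array's 75th percentile. limma 3.58.1 (R 4.3.3) fitted mutant against wild type over all probes, with lmFit, eBayes (2 residual and 2.55 prior degrees of freedom) and Benjamini-Hochberg adjustment; python 3.11.15 made the summaries. The code was tested on simulated data. Arrays give no read depth, and 2 mice a group limit the precision, with a median SE of 0.14. The p-values measure the spread between these samples, which the labels call separate mice.

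Named probes were those with an adjusted p under 0.05, up to 12 a direction with the largest difference among those with no overlap and an unadjusted p under 0.01, other probes of those genes, the top 3 genes of each list, neighbours of called probes, and the largest gaps within a group. Members, lists and rules were chosen with earlier results of these data known. Of the gene names, 250 matched RefSeq, and 29 have another symbol there. Background correction, scaling, filters, probe choice, variance model, replicate block, damaged corner and each mouse were varied. Same-numbered mice showed a correlation of deviations of -0.159, so the numbers were not treated as pairs. Some neighbouring and marker genes are not reported here.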

Additional observations from a re-analysis of the deposited data

How the results depend on the processing

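None of the 20 named probes changed direction, but most alternatives could not change it. These probes were picked for groups that do not overlap, so leaving out 1 mouse keeps the sign. Filters, probe choice, corner, variance model and blocks leave the difference as it was, so only background correction and scaling could reverse it. Of 307 values, 286 stayed on their side of the threshold, 13 lost and 8 gained a call. Only 2610507I01Rik and Fam183b had a call to lose, so most values that stayed had no call. The count of members with an adjusted p under 0.05 by limma (2) was 1 with the percentile taken over probes above background, 0 with no filter on dim probes, 1 with the filter on all 4 arrays, 0 with the replicate block and 0 with the crossed replicate block. Over all probes, 7 became 1 with no filter, 2 with the filter on all 4 arrays, 4 with the brightest probe of each gene name, 35 with a trended, robust variance, 1 with the replicate block and 1 with the crossed block. Leaving out 1 mouse gave 0 to 9 calls among members, 0 without either wild-type mouse, 9 without mutant mouse 1 and 1 without mutant mouse 2, and 0 to 162 over all probes. In those fits 1 group has 1 mouse, assumed to vary like the mice of the other group, so these counts do not measure stability. The 25 members with an unadjusted p under 0.01 became 15 to 26 when 1 mouse was left out (15 without wild-type mouse 2), and at 0.01 the replicate block left 19. The 16 members apart by 2-fold became 4 with normexp, 8 with the filter on all 4 arrays, 10 with the brightest probe, and 13 to 22 with 1 mouse left out. The normexp setting adds an offset of 50 to every intensity, where the array medians were 47.2 to 54.6. Dim probes therefore shrink with it by construction. Other causes of these changes were not tested.

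2610507I01Rik kept its call in 11 of 16 alternatives and its adjusted p ranged from 6.42e-05 to 0.319. Fam183b kept it in 7 of 15, with adjusted p from 0.0142 to 0.375, and 6330403K07Rik gained one in 5 of 16, with adjusted p from 0.00163 to 0.466. Dim probes shrank most with normexp: the minus-strand lincRNA ranged from -2.38 to -0.19 and Zfp287 from -0.87 to -0.03. The median difference of the members ranged from -0.04 to 0.01. The rule set at first for a damaged area found 0 blocks and gave no value. The damaged corner and the crossed block (same-numbered mice correlated at -0.159) were added after seeing the data. With 2 mice a group, the spread within a group rests on few values, and 149 probes of the region had no signal above background.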
